A study of Mus musculus with 25 samples.

Results

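Tau is a microtubule-binding protein of axons, and the P301S mutation of human tau drives its aggregation. The comparison described here asks, gene by gene, whether the change that goes with the P301S tau transgene was of the same size in astrocytes as in neurons. RNA had been sequenced from brain cells of mice aged 6 months that carried the hMAPT-P301S transgene and from non-transgenic littermates (non-Tg). Neurons were sorted with NeuN, a neuronal nuclear protein, and astrocytes with Gfap, the intermediate filament protein of astrocytes. All 25 of the 25 libraries were used: 5 P301S astrocyte, 6 non-Tg astrocyte, 6 P301S neuron and 8 non-Tg neuron libraries. The labels name neither the promoter of the transgene nor the number of animals behind a library, so p-values measure only the spread between these samples, which may be technical. Neuron and astrocyte libraries are not tied to animals in the labels and were treated as independent.

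The genotype effect of a gene is its log2 ratio of P301S over non-Tg within a cell type, and the difference is the effect in astrocytes minus the effect in neurons. A difference was called at an adjusted p under 0.05 (edgeR's quasi-likelihood test with Benjamini-Hochberg adjustment over 14197 genes, 1 fit of all libraries). A gene moved alike when the mean of its effects was called by the same test, both effects had the same sign and each an unadjusted p under 0.05, and the difference was not called. Levels (CPM) are counts scaled to a library total of 1000000, adjusted by the TMM method, and an adjusted p always comes from this fit. SE is the standard error of a log2 value.

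Astrocytes respond to injury and protein aggregates with a program called reactivity, in which filament proteins, secreted protease inhibitors and complement components rise. Interferons act through receptors that activate transcription factors of the Stat family. In a complex these bind the interferon-stimulated response element in promoters and switch on antiviral genes such as the Oas, Ifit, Mx and Gbp families. Neurons have the same receptors, while the reactive program is defined on astrocytes.

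The 3 genes whose libraries did not overlap between genotypes in either cell type were antiviral genes, so their promoters are shown first. Each line gives the 250 bases before the transcript start used in RefSeq's promoter table on build GRCm38.p6, 5′ to 3′ on the gene's strand, with matches to the interferon-stimulated response element in capitals (GAAA, any 2 bases, GAAA, on either strand).
Ddx60, chr8:61927837-61928086, plus strand: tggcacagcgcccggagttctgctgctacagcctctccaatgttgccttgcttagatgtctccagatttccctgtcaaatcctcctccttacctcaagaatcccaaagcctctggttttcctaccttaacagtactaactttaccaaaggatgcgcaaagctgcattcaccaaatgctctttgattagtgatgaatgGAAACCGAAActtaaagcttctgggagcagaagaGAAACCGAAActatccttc
Ifit1, chr19:34640639-34640888, plus strand: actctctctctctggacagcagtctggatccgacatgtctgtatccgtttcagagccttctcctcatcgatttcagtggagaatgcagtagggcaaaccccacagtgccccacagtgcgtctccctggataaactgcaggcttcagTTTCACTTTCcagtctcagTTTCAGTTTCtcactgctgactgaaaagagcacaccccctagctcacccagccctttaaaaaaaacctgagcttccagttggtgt
Oasl2, chr5:114896684-114896933, plus strand: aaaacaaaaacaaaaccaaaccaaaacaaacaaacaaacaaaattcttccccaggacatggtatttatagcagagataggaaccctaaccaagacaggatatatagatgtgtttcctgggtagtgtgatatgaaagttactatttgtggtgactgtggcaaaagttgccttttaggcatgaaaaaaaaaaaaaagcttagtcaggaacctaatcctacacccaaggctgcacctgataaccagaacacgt
Ddx60 held 2 matches, which begin at positions -53 and -19 from that transcript start. For Ddx60 and Oasl2 this start lies a few bases inside the annotated gene. Ifit1 held 2 matches on the opposite strand, which begin at -104 and -85, and Oasl2 held none in this window. Of the 27025 genes in the table, 3.46% held the element in a promoter, and of the 10122 tested genes among them 3.02%. It stood in 6 of the 10 tested interferon-list genes with a promoter entry, in 4 of 32 genes that moved alike upward, in 2 of 15 genes with a higher difference and in 0 of 14 with a lower one. A match describes the letters and shows no binding.

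Total counts ran from 1245964 to 4453555 per library, at which 3 counts are 0.674 to 2.41 CPM, for counting error only. Astrocyte markers summed to 10993 to 24096 CPM in astrocyte libraries and to 281 to 697 CPM in neuron libraries. Neuron markers summed to 3005 to 3995 CPM in neuron libraries and to 600 to 883 CPM in astrocyte libraries, so the libraries matched their labels and both sorts held some reads of the other type's markers. The P301S astrocyte libraries stood apart in quality. They detected 11940 to 16382 genes at 1000000 counts, against 15108 to 17853 in non-Tg astrocytes and 17586 to 18741 in neurons. Mitochondrial genes took 3.61% to 11.4% of their counts, against 2.31% to 5.66% in non-Tg astrocytes. Oligodendrocyte markers summed to 380 to 1008 CPM in them and to 195 to 509 CPM in non-Tg astrocytes. With genes detected as a covariate 61 differences were called, 16 of them among the 56 called without it, and with oligodendrocyte and microglia markers as covariates 70, with 7 of the 56 among them. Over genes, the median SD of log2 CPM was 1.19 in P301S astrocytes, 0.667 in non-Tg astrocytes, 0.381 in P301S neurons and 0.474 in non-Tg neurons. The joint fit gives each gene 1 spread for all groups. With separate fits for each cell type the number of called differences was 4, in place of 56.

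In astrocytes taken by themselves 961 genes were called higher (6.77%) and 721 lower (5.08%) in P301S, and in neurons 1 was called higher (0.00704%) and 0 lower. At an unadjusted p under 0.05 the difference was higher for 1112 genes (7.83%) and lower for 994 (7%). The difference was called for 56 genes (0.394% of those tested), of which 29 were higher (0.204%) and 27 lower (0.19%). All 56 had the larger effect in astrocytes. The 29 higher genes had a median effect of 2.85 in astrocytes and -0.12 in neurons, and the 27 lower genes had medians of -3.76 and 0.30. Over all genes tested the medians were 0.11 in astrocytes and 0.00 in neurons. The effects had opposite signs in 40 of the 56 genes, but only 2 of the 56 had an unadjusted p under 0.05 in neurons. Of all 14197 genes tested, 7777 had an astrocyte effect above 0, 7142 a neuron effect above 0 and 4547 both. Because the neuron effect is subtracted, choosing genes by a large difference favours opposite signs. P301S and non-Tg astrocyte libraries did not overlap for 13 of the 29 higher genes (1.07% of all genes tested) and 15 of the 27 lower genes (0.958%), and the neuron libraries overlapped for all 56. Over all genes tested, neuron libraries were apart for 0.12% (higher) and 0.0704% (lower). The count rests on single libraries: it ranged from 9 without P301S neuron library 3 to 522 without P301S astrocyte library 1.

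**Figure D1:**
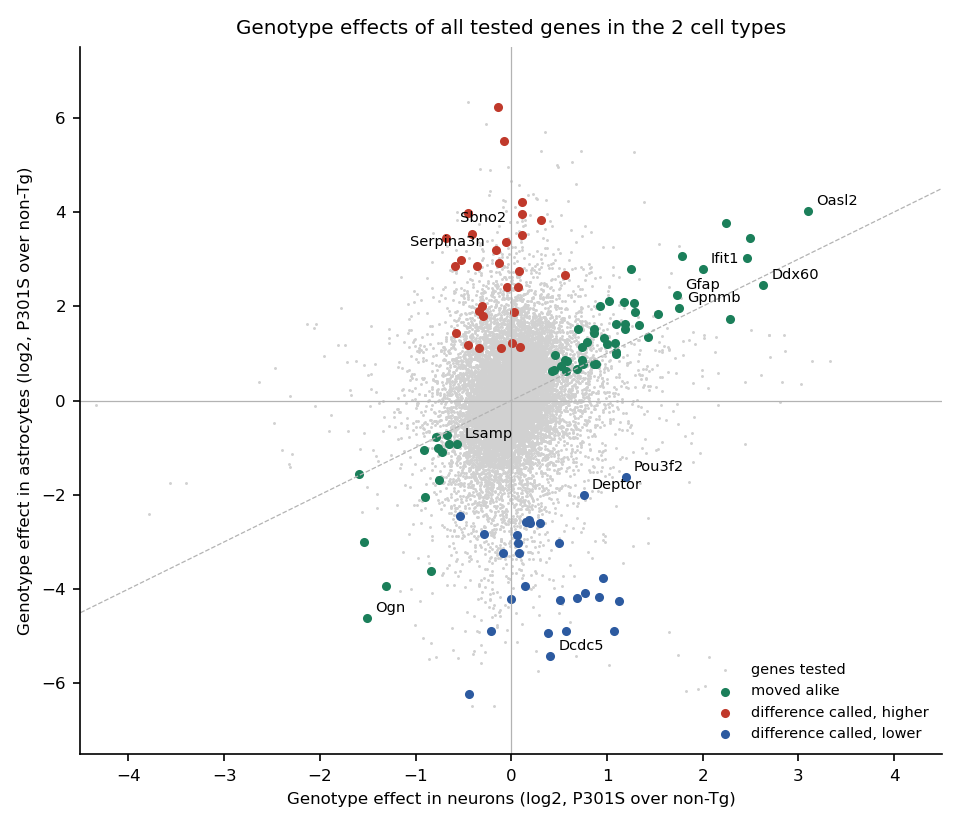
Genotype effect (log2, P301S over non-Tg) in neurons on the x axis and in astrocytes on the y axis for the genes tested, with called differences in red (29 higher) and blue (27 lower), genes that moved alike in green (58) and equal effects on the dashed line. Called differences lie along the vertical axis, with little change in neurons; 4 genes lie outside the axes.

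Serpina3n, a secreted serine protease inhibitor and a standard marker of reactive astrocytes, had the smallest p of the higher differences. P301S astrocytes held 293, 431, 276, 245 and 342 CPM, while the 6 non-Tg astrocyte libraries ran from 12.7 to 71.7 (median 22.5). In neurons the range was 7.18 to 18.1 CPM (median 14.7) in P301S and 6.94 to 22.0 (median 13.5) in non-Tg. Every P301S astrocyte library lay above every other library, and the neuron groups overlapped fully. The effect was 3.37 (SE 0.34) in astrocytes and -0.06 (SE 0.33) in neurons, a difference of 3.43 (SE 0.48, adjusted p = 7.39e-04). It was called in all 40 other settings tried, the only one of the 56 genes for which that held.

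Ssc5d, a secreted protein with scavenger receptor cysteine-rich domains, had a similar pattern from a lower base. It stood at 87.3, 84.7, 135, 62.7 and 32.9 CPM in P301S astrocytes and at 2.62 to 11.8 (median 5.45) in non-Tg astrocytes. Neuron libraries ran from 6.69 to 18.9 CPM (median 15.2) in P301S and from 2.67 to 16.4 (median 12.2) in non-Tg. Astrocyte groups were apart and neuron groups overlapped. The difference was 3.51 (SE 0.60, adjusted p = 0.00711), made of 3.82 in astrocytes and 0.31 in neurons. With oligodendrocyte and microglia markers as covariates it was 1.70 (adjusted p = 0.548).

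Sbno2, a transcriptional regulator of the Stat3 pathway, was at 123, 56.1, 24.3, 92.1 and 81.9 CPM in P301S astrocytes and at 2.68 to 12.8 (median 4.77) in non-Tg ones. Its neuron levels were 3.82 to 8.23 CPM (median 7.48) in P301S and 2.67 to 13.9 (median 4.89) in non-Tg. The astrocyte groups did not overlap, and the lowest P301S astrocyte library was still above all neuron libraries. The difference was 3.40 (SE 0.63, adjusted p = 0.0159).

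Synpo, an actin-binding protein of dendritic spines, was near the floor in non-Tg astrocytes, at 0 to 3.45 CPM (median 1.02). In P301S astrocytes it was at 32.9, 14.5, 23.9, 8.31 and 47.5 CPM, which reached the range of neurons, 15.8 to 33.7 (median 27.4) in P301S and 6.94 to 52.4 (median 22.8) in non-Tg. The difference was 4.10 (SE 0.75, adjusted p = 0.0137), with no overlap in astrocytes.

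Pex5l, an auxiliary subunit of HCN pacemaker channels, was at 12.1, 33.7, 62.4, 48.3 and 54.6 CPM in P301S astrocytes against 2.46 to 13.4 (median 7.13) in non-Tg ones. Neurons held more, 78.9 to 106 CPM (median 85.2) in P301S and 60.8 to 113 (median 92.9) in non-Tg. P301S astrocyte library 1 lay within the non-Tg range and the other 4 above it. The difference was 2.46 (SE 0.46, adjusted p = 0.0174).

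**Figure D2:**
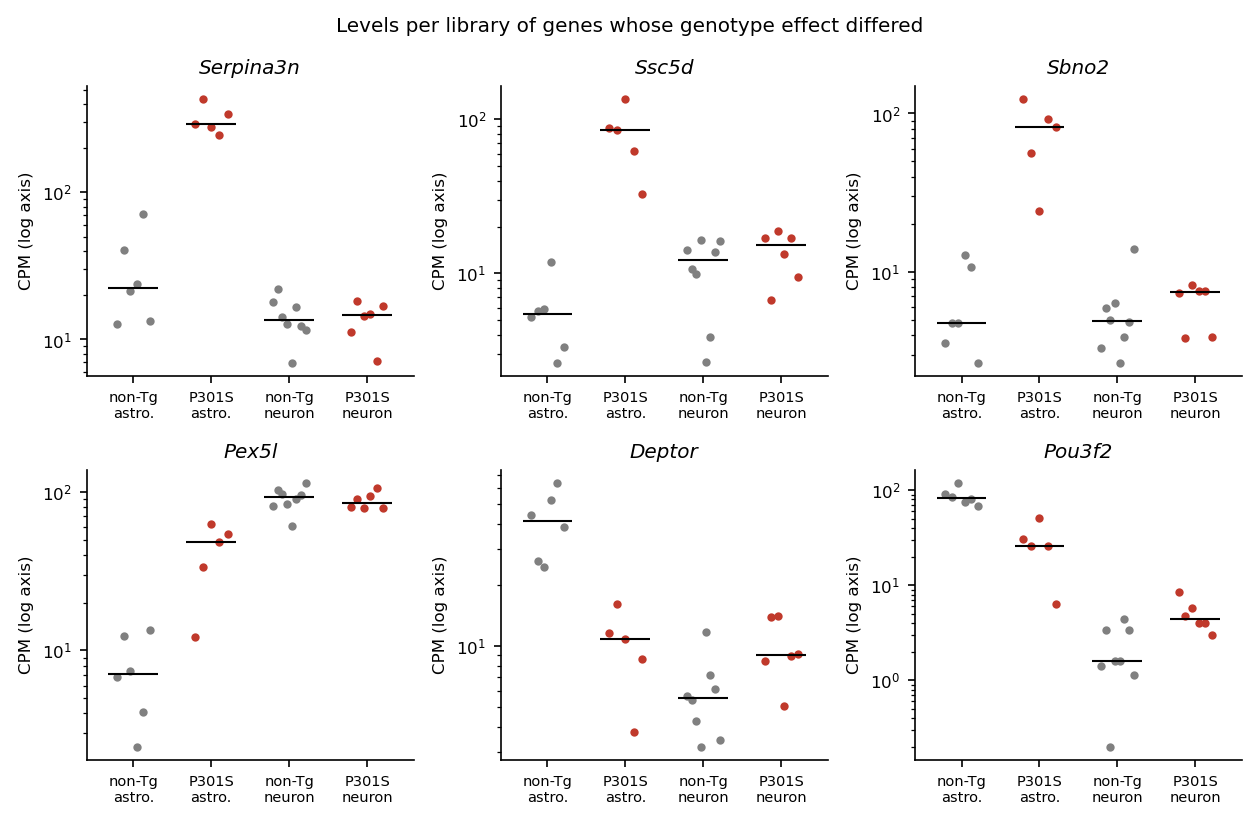
Level per library in CPM (log axis; a level of 0 is drawn at 0.2) of Serpina3n, Ssc5d, Sbno2, Pex5l, Deptor and Pou3f2 in the 4 groups, with the group median as a bar. Serpina3n in P301S astrocytes sits between 245 and 431 CPM, above all other libraries, and Deptor in P301S astrocytes sits between 3.78 and 16.1 CPM, below all non-Tg astrocyte libraries.

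The other 5 higher genes taken by rule had adjusted p = 0.0361 each and astrocyte groups that overlapped. Plcl2, a catalytically inactive phospholipase C relative, had a difference of 2.68 (SE 0.58), Chl1, an adhesion protein of the L1 family, 1.62 (SE 0.35), and Plce1, a phospholipase C, 2.09 (SE 0.46). Plcl2 was near the floor in non-Tg astrocytes, with a mean of 1.14 CPM and at most 5 counts in a library. It did not pass the low-count filter within astrocytes. Net1, an exchange factor for RhoA, had a difference of 4.12 (SE 0.88). For the RNA helicase Mov10 it was 4.43 (SE 0.94), with 168 CPM in P301S astrocyte library 3 and 4.22, 8.19, 10.6 and 39.3 CPM in the other P301S astrocytes. Without that library the difference of Mov10 was 2.87 (adjusted p = 0.0769). In neurons Chl1, an abundant transcript there, had an effect of -0.45 (SE 0.23). Its P301S neurons ran from 228 to 309 CPM and its non-Tg neurons from 244 to 514. Each of these 5 lost its call in 10 or more of the 25 fits that leave out 1 library.

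By mean CPM, 18 of the 29 higher genes were more abundant in non-Tg neurons than in non-Tg astrocytes, Pex5l, Plcl2, Chl1 and Synpo among them. The same held for 19 of the 27 lower genes and for 46.3% of all genes tested. The AMPA receptor subunit Gria1, chosen after its values were seen, was near the threshold with the same pattern. It was at 78.0, 111, 68.7, 97.4 and 154 CPM in P301S astrocytes, above all non-Tg astrocytes (25.6 to 56.2, median 42.8), and at 442 to 660 CPM (median 575) in P301S neurons against 405 to 939 (median 510) in non-Tg. Its difference was 1.25 (SE 0.30, adjusted p = 0.0514). The 15 neuron markers summed to 634 to 883 CPM in P301S astrocytes and 600 to 755 CPM in non-Tg astrocytes, and their part in these differences was not tested.

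The 27 lower genes had low counts in P301S astrocytes. In non-Tg libraries the median of their mean levels was 5.63 CPM in astrocytes and 13.1 CPM in neurons. At least 1 of the 5 P301S astrocyte libraries was at 0 for 21 of them, against 29.6% of all genes tested, and at least 2 were at 0 for 17, which held for 15.0% of all genes tested. For 17 genes no P301S astrocyte library exceeded 3 counts. Only 8 of the 27 passed the low-count filter within each cell type, against 25 of the 29 higher genes and 9348 of all 14197 genes tested. These libraries are also the ones with the fewest genes detected.

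Deptor, an inhibitor of mTOR kinase complexes, was the lower gene of the rule with ample counts and called in all but 3 of the 25 fits that leave out 1 library. It was at 11.5, 16.1, 10.8, 3.78 and 8.60 CPM in P301S astrocytes and at 24.5 to 63.6 (median 41.5) in non-Tg astrocytes. In neurons it was at 5.09 to 14.0 CPM (median 9.04) in P301S against 3.18 to 11.7 (median 5.57) in non-Tg, with overlap. The effects were -2.01 (SE 0.40) and 0.76 (SE 0.38, unadjusted p = 0.0525), a difference of -2.76 (SE 0.55, adjusted p = 0.0240).

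Pou3f2, a POU-domain transcription factor of neural progenitors, was the lower gene with an unadjusted p under 0.05 in neurons. It was at 30.7, 25.8, 50.4, 25.7 and 6.36 CPM in P301S astrocytes, all below the 68.9 to 119 CPM (median 82.9) of non-Tg astrocytes. Neuron levels were low, 3.03 to 8.46 CPM (median 4.41) in P301S and 0 to 4.44 (median 1.60) in non-Tg. The effect was -1.63 (SE 0.41) in astrocytes and 1.20 (SE 0.46, unadjusted p = 0.0115) in neurons, and the difference -2.83 (SE 0.61, adjusted p = 0.0361).

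Pgr, the progesterone receptor, had 1 count in all P301S astrocyte libraries together and 58 in the non-Tg ones, at neuron levels of 20.3 to 35.5 CPM in P301S and 23.3 to 51.2 in non-Tg. Relative to the total counts that is 53.5-fold lower in P301S astrocytes, with a 95% counting interval of 9.22 to 2148 (exact binomial). Such intervals pool the reads of a group and leave out the spread between its libraries. Dcdc5, of the doublecortin family, had 3 counts against 194, or 59.6-fold lower (20.1 to 292). The homeobox factor Pbx3 had 1 against 38, or 35.0-fold lower (5.92 to 1420). Ptpn5, the striatum-enriched phosphatase of neurons, had 5 counts against 115, and Snai2, a zinc-finger transcription factor, 4 against 76. The highest non-Tg astrocyte library held 20 of the Pbx3 counts, and that of Ptpn5 held 58. Pgr, Pbx3 and Ptpn5 did not pass the low-count filter within astrocytes. The adjusted p of the difference was 0.00580 for Pgr and Dcdc5, 0.0240 for Ptpn5 and Snai2, and 0.0361 for Pbx3.

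Ankrd49, an ankyrin repeat protein, was at 0.755 to 3.94 CPM in P301S astrocytes and 6.38 to 28.1 in non-Tg ones, and differed by -3.08 (SE 0.63, adjusted p = 0.0240). For Cnrip1, which binds the cannabinoid receptor CB1, the ranges were 0 to 4.51 and 8.03 to 16.8 CPM and the difference -3.32 (SE 0.68, adjusted p = 0.0240). Neither had overlapping astrocyte groups, and in neurons their effects were 0.07 (SE 0.39) and 0.08 (SE 0.41). Npr3, Pld5 and Penk, chosen after their values were seen, were at 0 in all 5 P301S astrocyte libraries. The non-Tg astrocyte libraries together held 54, 23 and 26 counts, and Npr3 was at 0 in 1 of them and Pld5 in 2. Relative to the total counts, the 95% counting interval (exact binomial) begins at 13.0-fold lower in P301S for Npr3, 5.30-fold for Pld5 and 6.05-fold for Penk. It pools the reads of a group and leaves out the spread between libraries. The highest non-Tg astrocyte library of each gene held 29 counts of Npr3, 11 of Pld5 and 18 of Penk.

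**Figure D3:**
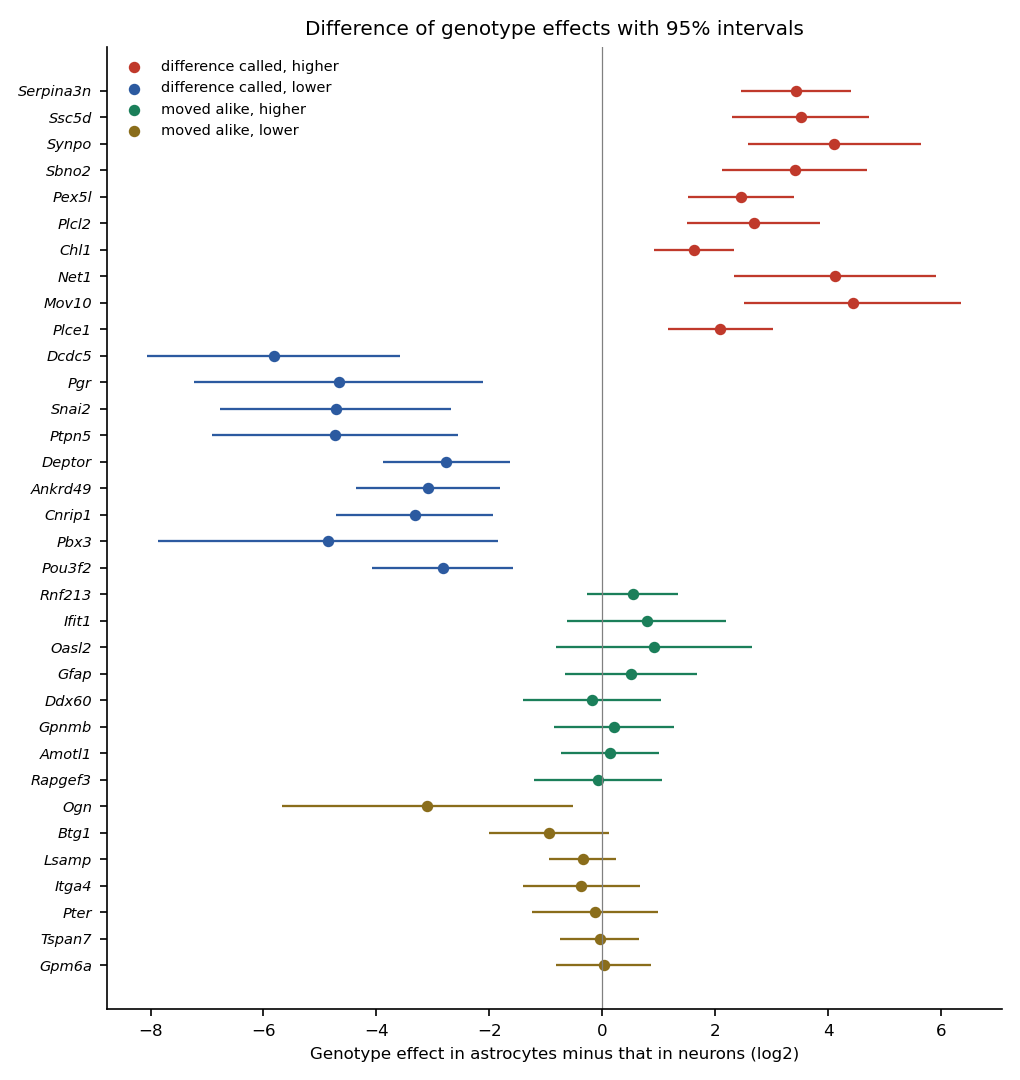
Difference of genotype effects (log2, astrocytes minus neurons; points) with 95% intervals (lines) for 34 of the genes taken by rule; Stk26 is left out because its P301S astrocyte libraries were all at 0. The intervals of the called genes drawn lie away from 0, from 2.45 to 4.40 for Serpina3n, and those of the genes that moved alike cover 0, apart from Ogn (-5.68 to -0.53).

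The mean of the 2 effects was called for 258 genes upward (1.82%) and 227 downward (1.6%). Of these, 58 moved alike (0.409% of those tested), 44 upward (0.31%) and 14 downward (0.0986%). The upward genes had median effects of 1.51 in astrocytes and 1.09 in neurons, and the downward genes -1.32 and -0.81. Of the 85 genes with an unadjusted p under 0.05 in each cell type, 57 were higher in P301S in both, 19 lower in both and 9 opposite. The effect was larger in astrocytes for 48 of the 58. An uncalled difference does not show equal effects: its 95% interval stayed within 1 log2 unit of 0 for 13 of the 58. When only genes that pass the low-count filter in each cell type were tested, 30 moved alike, 29 of them among the 58.

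Ddx60, an interferon-induced RNA helicase of the RIG-I pathway, was at 188, 40.9, 302, 191 and 80.4 CPM in P301S astrocytes and at 27.3 to 31.9 (median 29.5) in non-Tg astrocytes. In neurons it was at 6.21 to 13.0 CPM (median 9.20) in P301S and at 0 to 2.84 (median 1.50) in non-Tg. The groups did not overlap in either cell type. Its effects were 2.45 (SE 0.39) in astrocytes and 2.63 (SE 0.46) in neurons, and the difference was -0.18 (95% interval -1.41 to 1.04). It was also the only gene called in neurons by themselves (adjusted p = 0.0143).

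Oasl2, an oligoadenylate synthetase-like protein, was at 107, 60.8, 200, 486 and 283 CPM in P301S astrocytes against 5.19 to 27.6 (median 9.17) in non-Tg ones. Its neuron levels were 4.0 to 10.2 CPM (median 7.60) against 0 to 3.18 (median 0.533). Again no P301S library overlapped the non-Tg range of its cell type. Oasl2 did not pass the low-count filter within neurons and was at 0 in 3 non-Tg neuron libraries. The effects were 4.02 (SE 0.51) and 3.10 (SE 0.68), with a mean of 3.56 (SE 0.43, adjusted p = 5.33e-06).

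Ifit1, which binds foreign RNA caps, was at 16.3, 38.7, 16.1, 58.1 and 36.7 CPM in P301S astrocytes and 1.27 to 7.02 (median 5.14) in non-Tg astrocytes. It was at 12.9 to 23.8 CPM (median 15.2) in P301S neurons and 1.37 to 11.2 (median 2.11) in non-Tg neurons. The third gene without overlap in either cell type, it had effects of 2.78 (SE 0.51) and 2.00 (SE 0.47). Only these 3 of 14197 genes (0.0211%) were separated in this way.

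Chosen after their values were seen, Mx2 (annotated as a transcribed pseudogene), the antiviral genes Oas2 and Ddx58 and the GTPase Gbp7 moved alike too. Their astrocyte and neuron effects were 3.03 and 2.47 for Mx2, 3.07 and 1.79 for Oas2, 1.32 and 0.97 for Ddx58, and 1.84 and 1.53 for Gbp7. The SE in neurons was 0.86, 0.77, 0.37 and 0.53 in that order. Mean neuron levels were near the floor for Mx2 (2.16 CPM in P301S, 0.352 in non-Tg) and Oas2 (2.89 and 0.883). Mx2 was at 0 in 3 non-Tg neuron libraries, and Oas2 in 2 of them and in 3 non-Tg astrocyte libraries. Mx2, Oas2 and Gbp7 did not pass the low-count filter within neurons.

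Gfap, the filament protein used for the sort, was at 835, 815, 1105, 1155 and 856 CPM in P301S astrocytes and 90.3 to 379 (median 172) in non-Tg astrocytes, with no overlap. Neuron libraries held 2.26 to 13.1 CPM (median 8.96) in P301S and 0.534 to 9.02 (median 1.39) in non-Tg, with overlap. The effects were 2.24 (SE 0.36) and 1.73 (SE 0.45), and the difference 0.51 (95% interval -0.66 to 1.68). Gpnmb, a transmembrane glycoprotein of lysosome-rich cells, was at 178, 154, 198, 129 and 99.9 CPM against 19.7 to 67.0 (median 30.5) in astrocytes and at 4.33 to 13.5 (median 7.75) against 1.42 to 4.80 (median 1.74) in neurons. Its P301S astrocytes were all above non-Tg, and its neurons overlapped at 1 end. Within neurons Gpnmb did not pass the low-count filter. The effects were 1.96 (SE 0.35) and 1.75 (SE 0.39).

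The remaining upward genes of the rule were Rnf213, a ubiquitin ligase, Amotl1, an angiomotin-family scaffold, and Rapgef3, a cAMP-activated exchange factor. Rnf213 had effects of 1.63 (SE 0.28) in astrocytes and 1.09 (SE 0.27) in neurons. For Amotl1 they were 1.22 (SE 0.30) and 1.08 (SE 0.30), and for Rapgef3 1.36 (SE 0.35) and 1.43 (SE 0.44). All 3 had separate astrocyte groups and overlapping neuron groups. Of these, Rapgef3 did not pass the low-count filter within neurons.

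**Figure D4:**
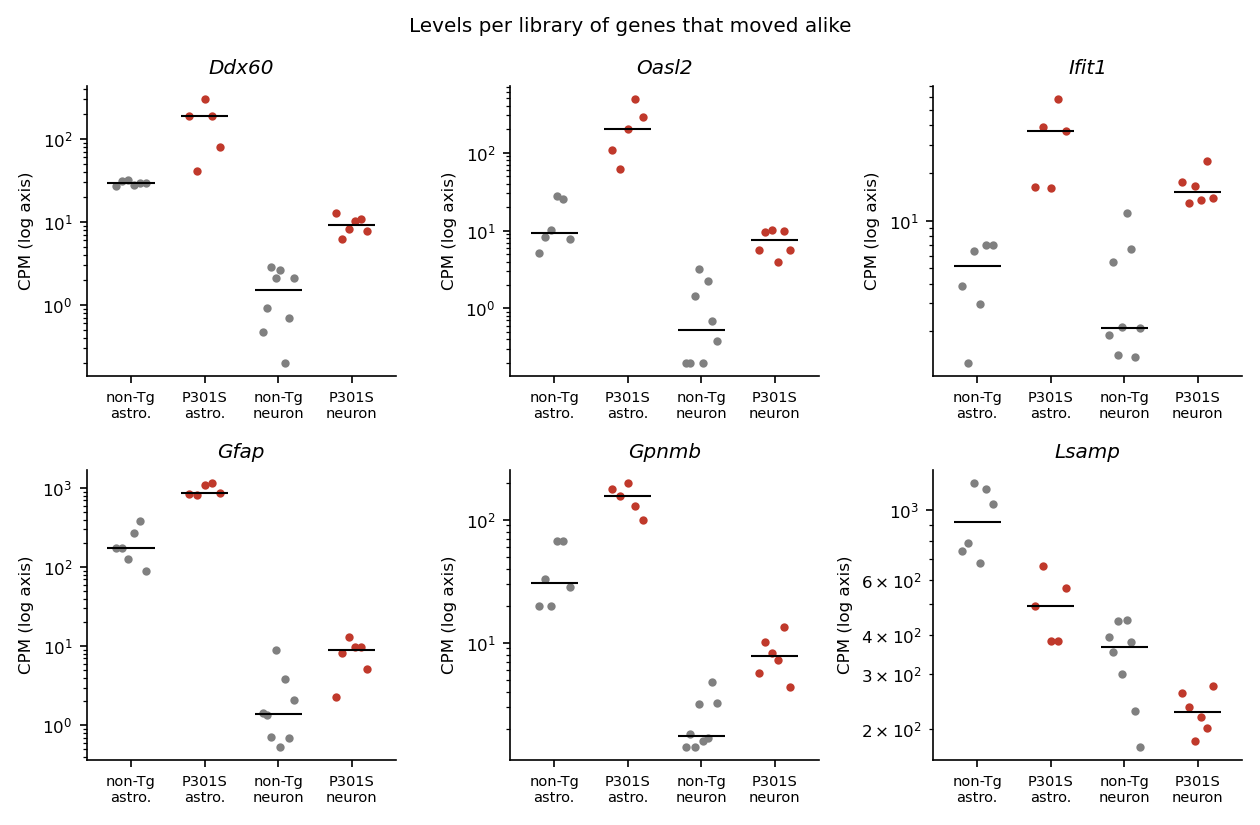
Level per library in CPM (log axis; a level of 0 is drawn at 0.2) of Ddx60, Oasl2, Ifit1, Gfap, Gpnmb and Lsamp in the 4 groups, with the group median as a bar. For Ddx60, P301S libraries lie above non-Tg ones in astrocytes (40.9 to 302 against 27.3 to 31.9 CPM) and in neurons (6.21 to 13.0 against 0 to 2.84 CPM), and Lsamp lies lower in P301S.

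Several of the genes that moved alike are astrocyte genes seen at low levels in the neuron libraries. Astrocyte markers themselves summed to 354 to 697 CPM (median 534) in P301S neurons and 281 to 622 (median 367) in non-Tg neurons. Of these 16 markers, 14 had a neuron effect above 0 (median 0.68), as had 7142 of all 14197 genes tested. In P301S, the mean neuron level of the 16 markers was 0.754% to 9.51% of the astrocyte level. For the 44 upward genes it was 0.593% to 107% (median 5.60%), and 20 of them lay above the highest astrocyte marker. Ifit1 stood at 49.2%, while Ddx60 stood at 5.83%, Gpnmb at 5.38%, Oasl2 at 3.29%, Rapgef3 at 1.72% and Gfap at 0.845%. Clu and Ntsr2, astrocyte genes chosen after their values were seen, stood at 1.19% and 2.48%. Gfap and Ntsr2 are themselves among the 16 markers, so they lie within the markers' range by definition. With the astrocyte marker level of each neuron library as a covariate, which was added after seeing the data, 13 of the 58 genes still moved alike. In a separate count, the same covariate left the mean effect called for 7 of the 8 upward genes of the rule, all but Rapgef3 (1.11). The covariate averaged the markers other than Gfap, so Ntsr2, which is among them, was partly adjusted for itself. The covariate varied among neuron libraries only, so the astrocyte part of each mean was not adjusted. A mean that stayed called therefore does not show that the neuron effect remained. All 9 tested microglia and myeloid markers had effects above 0 in both cell types, as had 4547 of all 14197 genes tested. Their medians were 0.41 in astrocytes and 0.67 in neurons, and none moved alike. They summed to 109 to 579 CPM in P301S neurons and 39.7 to 260 in non-Tg neurons. With oligodendrocyte and microglia markers together as covariates, 6 of the 58 genes still moved alike. Microglia markers alone were not tested as a covariate. In bulk samples, fewer cells of a type and less RNA per cell cannot be told apart.

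Of the 14 downward genes, 5 were predicted or unnamed. Lsamp, an IgLON adhesion protein, was at 492, 665, 382, 381 and 562 CPM in P301S astrocytes, below the 678 to 1220 CPM (median 917) of non-Tg ones. In neurons it was at 183 to 273 CPM (median 227) in P301S and 175 to 444 (median 366) in non-Tg, with overlap. The effects were -0.92 (SE 0.22) and -0.57 (SE 0.20), and the mean -0.74 (SE 0.15, adjusted p = 0.00829). Tspan7, a tetraspanin, had effects of -0.72 (SE 0.26) and -0.67 (SE 0.23), and Gpm6a, a membrane glycoprotein, -0.77 (SE 0.31) and -0.79 (SE 0.28). Both overlapped between genotypes in both cell types.

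Pter, a phosphotriesterase relative, had -1.04 (SE 0.43) and -0.91 (SE 0.33). Itga4, an integrin subunit, had -1.09 (SE 0.39) and -0.72 (SE 0.33), with P301S astrocyte library 4 at 34.7 CPM and the other P301S astrocytes at 3.37 to 8.73. Btg1, an antiproliferative factor, had -1.69 (SE 0.38) and -0.75 (SE 0.35). Ogn, a matrix proteoglycan, was at 0 in 4 of the 5 P301S astrocyte libraries and at 1.67 to 9.33 CPM in non-Tg astrocytes, and its neuron effect was -1.50 (SE 0.55). Its difference of -3.10 (95% interval -5.68 to -0.53) was not called (adjusted p = 0.123). Stk26, a kinase, was at 0 in every P301S astrocyte library and at most at 0.985 CPM in non-Tg astrocytes, both at or near the floor, so no astrocyte fold is given. In neurons it was at 13.1 to 29.3 CPM in P301S and 22.3 to 70.4 in non-Tg.

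Among the 9 genes with opposite effects were Igfbp5, a binding protein of insulin-like growth factors, and Tead1, a transcription factor of the Hippo pathway, both chosen after their values were seen. Igfbp5 had effects of 1.05 in astrocytes and -0.73 in neurons (difference 1.79, SE 0.45, adjusted p = 0.0575). Tead1 had 0.52 and -0.51 (difference 1.03, SE 0.30, adjusted p = 0.0934). Across the 3453 genes above 20 CPM in every group the effects of the 2 cell types had a Pearson r of 0.342 and a Spearman rho of 0.354. Across all genes tested, r was 0.149 and rho 0.205. These describe genes measured in the same libraries, which are not independent replicates.

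Of the 15 tested interferon response genes, 1 had a called higher difference (0.204% of all genes tested), 7 moved alike upward (0.31%) and 14 had effects above 0 in both cell types (4547 of all 14197 genes tested). The list's median effect was 2.25 in astrocytes and 1.02 in neurons, and its median difference 0.92, beside 0.09 over all genes tested. With genes detected as a covariate it was 0.43. Ifi27, a small interferon-induced protein, was the called member. It was at 54.3, 97.9, 177, 82.3 and 119 CPM in P301S astrocytes against 9.70 to 25.5 (median 14.8) in non-Tg, and at 4.51 to 8.98 (median 5.41) against 2.13 to 5.55 (median 4.21) in neurons. Astrocyte groups were apart and neuron groups overlapped, with a difference of 2.11 (SE 0.49, adjusted p = 0.0469). Ifit3, a neighbour and relative of Ifit1, had effects of opposite sign, 2.25 (SE 0.53) and -0.45 (SE 0.60), and its difference of 2.70 (SE 0.80) was not called (adjusted p = 0.0934). Stat2, a transcription factor of the interferon response, had 1.67 and 0.51 (difference 1.16, SE 0.46, adjusted p = 0.214). The 6 interferon-induced GTPases had medians of 2.54 and 1.14, with Gbp7 moving alike and no called difference. Their median difference was 1.57, or 0.54 with genes detected as a covariate. Irgm1 had a difference of 1.89 (SE 0.92) and Iigp1 of 1.94 (SE 1.15), neither called.

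The 10 tested pan-reactive astrocyte genes had differences above 0 in all cases (54.3% of all genes tested), with a median of 1.24 and medians of 2.14 in astrocytes and 0.28 in neurons. Serpina3n was called, and Gfap and Cxcl10, a chemokine, moved alike by the rule. In neurons Cxcl10 was under the floor, at 0 in all 8 non-Tg and 3 of the 6 P301S libraries. No neuron library held more than 1 count of it, so no neuron change of Cxcl10 can be read. Vim, the filament partner of Gfap, was at 86.2, 206, 82.6, 162 and 96.9 CPM in P301S astrocytes, above the 22.8 to 39.8 CPM of non-Tg ones, with a difference of 1.90 (SE 0.68, adjusted p = 0.165). The protease inhibitor Timp1 had a difference of 3.29 (SE 1.25, adjusted p = 0.185), with 43.0 CPM in P301S astrocyte library 4 and 0 to 8.82 in the others. It was 1.57 without that library and 4.40 without non-Tg astrocyte library 4. The lipid receptor S1pr3 had 1.48 (SE 0.70, adjusted p = 0.312). With genes detected as a covariate the list's median difference was 0.63.

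The 8 tested genes of the A1 reactive list had a median difference of 1.25 and the 10 complement genes of 0.71, with no called member in either. With genes detected as a covariate these medians were 1.83 and 0.10. Clu, of the complement list, moved alike. Serping1, the inhibitor of complement C1, was at 20.4 to 32.9 CPM in P301S astrocytes and 0.875 to 23.7 in non-Tg, and differed by 2.88 (SE 1.02, adjusted p = 0.153). The classical pathway components C4b and C4a, near-identical copies whose reads may be shared, had astrocyte effects of 2.42 (SE 0.43) and 2.62 (SE 0.40). C4b was at 592, 951, 910, 914 and 819 CPM in P301S astrocytes and 88.8 to 271 (median 148) in non-Tg ones, and in neurons at 0 to 9.68 (median 3.06) against 0.475 to 9.02 (median 0.929). Its difference was 1.39 (95% interval -0.06 to 2.85) and that of C4a 2.05 (0.70 to 3.40, adjusted p = 0.124). Without non-Tg neuron library 4 that of C4b was 0.55. C3, the central complement component, had 1.24 (SE 0.61) in astrocytes and neuron levels under 1.73 CPM, with a difference of 0.76 (SE 1.05), or 0.27 without P301S astrocyte library 1.

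**Figure D5:**
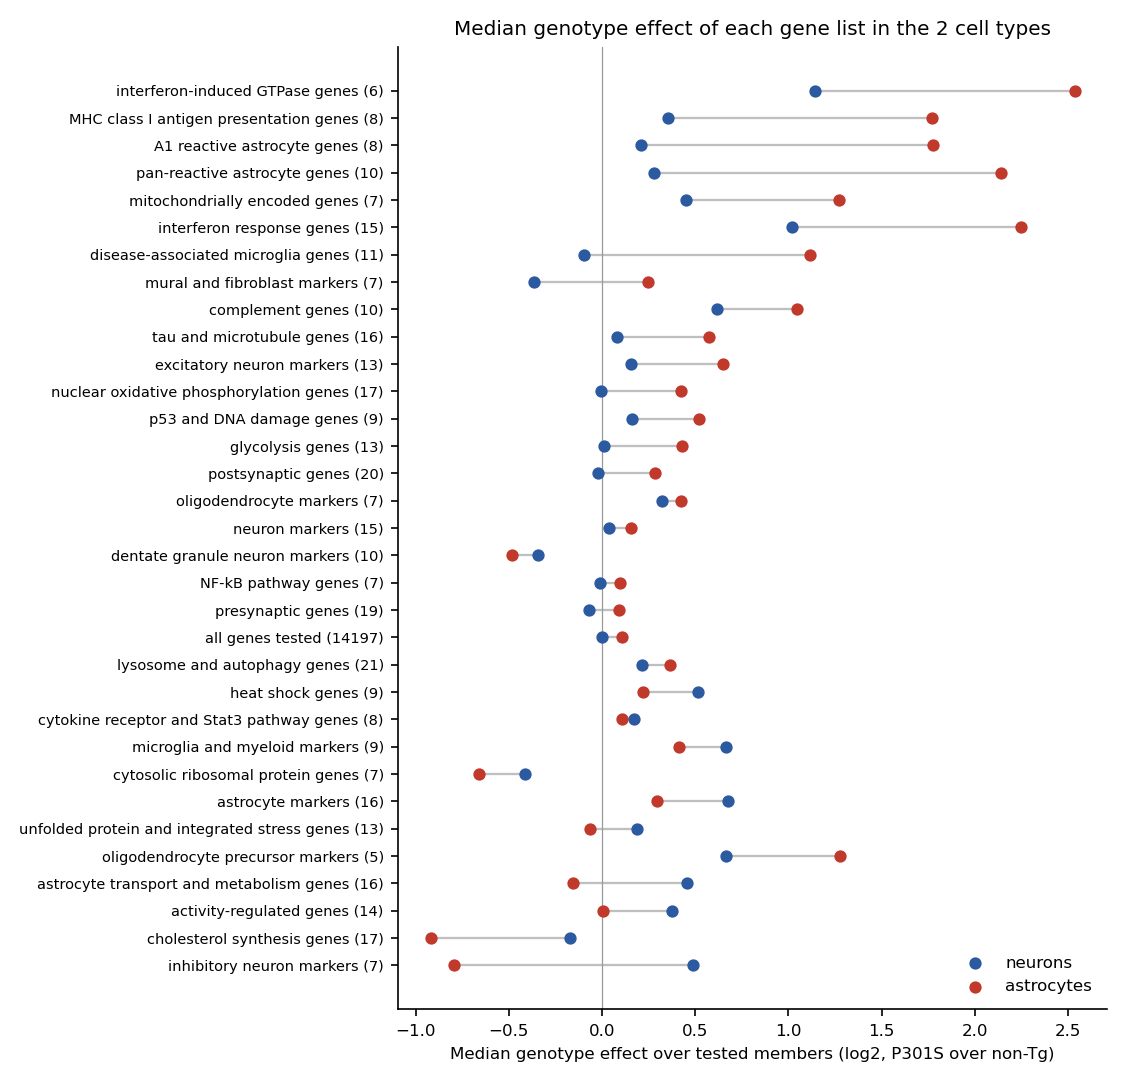
Median genotype effect (log2, P301S over non-Tg; x axis) over the tested members of each gene list in astrocytes (red) and neurons (blue), sorted by the median difference, with the number tested in brackets and all genes tested as 1 row; lists with under 5 tested members are left out. Interferon lists lie to the right in both cell types (GTPases at 2.54 and 1.14), reactive lists mainly in astrocytes, and inhibitory neuron markers lie on opposite sides (-0.80 and 0.49).

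For the 8 tested MHC class I genes the median difference was 1.42, or 0.59 with genes detected as a covariate, and none was called. B2m, the light chain of MHC class I, was at 42.2, 102, 124, 331 and 77.8 CPM in P301S astrocytes against 31.8 to 56.7 in non-Tg ones, and differed by 1.49 (SE 0.61, adjusted p = 0.241), or by 0.85 without P301S astrocyte library 4 and -0.43 with genes detected as a covariate. The 7 mitochondrially encoded genes had medians of 1.27 in astrocytes and 0.45 in neurons with no called difference. ND4, a complex I subunit, differed by 1.05 (SE 0.45) and ND6, another, by 1.05 (SE 0.47). With genes detected as a covariate the list's median difference turned to -0.80.

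The 17 cholesterol synthesis genes had a median effect of -0.92 in astrocytes and of -0.17 in neurons. In astrocytes 5 of them were above 0 (7777 of all 14197 genes tested), and in neurons 3 (7142 of all 14197). The list's median difference was -0.75, with 5 above 0 (54.3% of all genes tested) and none called. Cyp51, the lanosterol demethylase, was at 18.0, 18.6, 77.7, 24.9 and 14.6 CPM in P301S astrocytes against 50.2 to 190 (median 96.7) in non-Tg ones, and at 20.3 to 32.9 against 17.8 to 52.3 in neurons. Its difference was -1.54 (SE 0.50, adjusted p = 0.125). Insig1, the sterol sensor of the endoplasmic reticulum, differed by -1.90 (SE 0.71, adjusted p = 0.187), with no overlap in astrocytes.

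Of the 16 genes of astrocyte transport and metabolism, 1 had a difference above 0 (54.3% of all genes tested) and 15 below 0. The median was -0.57 and none was called. Their median effect was -0.15 in astrocytes and 0.46 in neurons. Aqp4, the water channel of astrocyte endfeet, was at 811, 988, 464, 942 and 872 CPM in P301S astrocytes against 693 to 1291 (median 1092) in non-Tg ones, and at 7.37 to 21.1 (median 13.0) against 2.09 to 17.2 (median 4.06) in neurons. Both cell types overlapped, with effects of -0.39 (SE 0.31) and 1.06 (SE 0.33) and a difference of -1.46 (SE 0.46, adjusted p = 0.110). Gja1, the astrocyte gap junction protein, had -0.90 (SE 0.40) and 0.95 (SE 0.49), a difference of -1.85 (SE 0.63, adjusted p = 0.145). With the astrocyte marker level of each neuron library as a covariate the differences were -0.87 for Aqp4 and -0.90 for Gja1. Both genes are among the markers averaged in that covariate, so each was partly adjusted for itself and part of this shift was built in. With oligodendrocyte and microglia markers as covariates the differences were -0.20 for Aqp4 and -0.24 for Gja1.

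In neuronal lists, the 7 tested inhibitory neuron markers had a median difference of -1.44 with none called, at 19.2 to 50.9 summed CPM in P301S astrocytes and 42.6 to 81.0 in non-Tg astrocytes. Of the 10 dentate granule neuron markers, Pdzd2, a PDZ-domain protein, was called. It was at 55.5, 87.9, 58.3, 24.2 and 184 CPM in P301S astrocytes and 4.43 to 24.8 (median 15.7) in non-Tg ones, overlapping at 1 library, and at 36.1 to 63.3 against 22.6 to 58.7 in neurons (difference 2.34, SE 0.52, adjusted p = 0.0449). The list's median difference was 0.22, from medians of -0.48 in astrocytes and -0.34 in neurons. There 2 and 1 of the 10 effects were above 0, against 7777 and 7142 of all 14197 genes tested. The dentate markers summed to 528 to 803 CPM in P301S neurons and 825 to 1161 in non-Tg neurons, with no overlap, and to 84.5 to 245 against 170 to 229 in astrocytes. The 16 tau and microtubule genes had a median difference of 0.62, or 0.25 with genes detected as a covariate, and none was called.

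Mapt, the mouse tau gene, was at 79.4, 41.3, 87.1, 119 and 127 CPM in P301S astrocytes against 34.0 to 59.6 (median 41.6) in non-Tg ones. In neurons it was at 33.4 to 67.3 (median 51.8) against 27.7 to 93.9 (median 41.0). P301S astrocyte library 2 lay within the non-Tg range. The effects were 1.02 (SE 0.32) and 0.00 (SE 0.29), and the difference of 1.02 (95% interval 0.14 to 1.89) was not called (adjusted p = 0.248). The counts are of the mouse gene, and whether reads of the human transgene fell on it is not stated, so Mapt does not check the labels. Prnp, the prion protein, had a difference of -0.46 (SE 0.36) and Apoe, the main lipoprotein of astrocytes, of -0.19 (SE 0.66), neither called. The sign of each turned in at least 1 of the other settings.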

How the data were processed

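For every gene the files hold the reads that align uniquely to its model as a count, per the file headers. A second deposited column, RPKM adjusted by size factors, was made by the authors from the counts and entered no test. GSNAP and GRCm38 are named in the submitters' processing notes, with no version; the gene annotation was not given. The 36528 Entrez IDs were matched to RefSeq symbols and positions on GRCm38.p6; 5479 had no match, held 3.30% of counts and stayed in the tests.

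Counts were analysed in edgeR 4.0.16 (R 4.3.3): TMM, filterByExpr over the 4 groups, a robust quasi-likelihood fit of 25 libraries with 1 mean per group and no covariate, Benjamini-Hochberg adjustment over 14197 genes, threshold 0.05. SE and 95% intervals came from the fitted model. Library totals of 1245964 to 4453555 limit the precision of low genes, and no 2 libraries held identical values. Other settings used DESeq2 1.42.0, limma 3.58.1, other scalings, filters and covariates, and left out libraries.

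Genes named were the 10 higher and 10 lower called differences with the smallest p and a log2 difference of at least 0.5; the 8 higher and 8 lower genes moving alike with the smallest larger p; up to 4 members of lists with a called member and 2 of other lists described; and Mapt, Prnp, Gfap, Apoe, C3, C4b, Serpina3n and Ddx60. Predicted and sex-linked marker genes were not named. The members, 34 gene lists and rules were chosen with earlier results of these data known. Results for some of these genes are not reported here.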

Additional observations from a re-analysis of the deposited data

Results flagged for a closer look

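The difference between cell types, tested as an interaction, was past the threshold for 21 of the genes named, in log2 units of astrocytes minus neurons. Higher were Serpina3n (3.43), Ssc5d (3.51), Synpo (4.10), Sbno2 (3.40), Pex5l (2.46), Plcl2 (2.68), Chl1 (1.62), Net1 (4.12), Mov10 (4.43), Plce1 (2.09), Ifi27 (2.11) and Pdzd2 (2.34). Lower were Dcdc5 (-5.82), Pgr (-4.67), Snai2 (-4.72), Ptpn5 (-4.73), Deptor (-2.76), Ankrd49 (-3.08), Cnrip1 (-3.32), Pbx3 (-4.86) and Pou3f2 (-2.83).

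For 36 of the 268 gene and group pairs examined, 1 library stood far from the rest of its group; chance gives about 1 in 20. In non-Tg astrocytes, library 4 was highest for Ssc5d (11.8 CPM), Ptpn5 (28.6), Timp1 (3.45), S1pr3 (53.2), Serping1 (23.7) and Stat2 (117), library 5 for Plce1 (147), Pbx3 (5.83), Rnf213 (328) and Gbp7 (82.8), and library 6 was lowest for Cnrip1 (8.03). In P301S astrocytes, library 3 was highest for Mov10 (168 CPM) and Cyp51 (77.7), library 4 for Itga4 (34.7), Timp1 (43.0) and B2m (331), and library 2 for S1pr3 (129) and Pbx3 (0.315). Library 5 was highest for Pgr (0.374) and library 1 for Ogn (0.563). The values of Pbx3, Pgr and Ogn rest on 1 or 2 counts, with the other 4 P301S astrocyte libraries at 0.

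In P301S neurons, library 1 was highest for B2m (25.9 CPM), ND4 (2603) and Apoe (26.5), and library 6 for Btg1 (17.8) and Pdzd2 (63.3). P301S neuron library 1 also held the most microglial marker RNA of the neuron libraries, 579 CPM summed. In non-Tg neurons, library 5 was highest for Deptor (11.7 CPM), Tspan7 (139), Vim (10.1), Cyp51 (52.3) and Insig1 (25.1), library 8 for Sbno2 (13.9) and Mov10 (20.6), library 4 for Gfap (9.02) and C4b (9.02), library 6 for Rapgef3 (4.99) and library 3 for B2m (21.3).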

How the results depend on the processing

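The number of called differences, 56, depended on the setting: 425 with DESeq2, 10 with limma voom and sample quality weights, 1 (Serpina3n) with voom and 1 weight per group, 4 with separate fits, 12 after dropping 2 non-Tg neuron libraries whose sample names in the labels carry another number range, 266 without P301S astrocyte libraries 3 and 4, and 21 with the astrocyte marker covariate in neurons. It ranged from 9 to 522 when 1 library was left out: from 9 to 17 without any 1 P301S neuron library, from 15 to 52 without any 1 non-Tg neuron library, from 98 to 522 without any 1 P301S astrocyte library and from 40 to 114 without any 1 non-Tg astrocyte library. With the sex marker, genes detected and oligodendrocyte plus microglia covariates it was 45, 61 and 70, but with 8, 16 and 7 of the 56 among them. The number of genes moving alike, 58, depended on the setting too. It was 26 with voom and group weights, with 19 of the 58 among them. With genes that pass the filter in each cell type it was 30 (29 of the 58 among them). The sex marker covariate gave 29 (16 of the 58), oligodendrocyte and microglia covariates 14 (6 of the 58) and genes detected as a covariate 12 (12 of the 58). Without P301S astrocyte libraries 3 and 4 it was 91 (43 of the 58). The astrocyte marker covariate, which was added after seeing the data, gave 13 (13 of the 58). Without 1 library the genes moving alike numbered 31 (without P301S neuron library 5) to 92 (without P301S astrocyte library 2).

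All 21 called differences and 22 mean effects named kept their direction in every setting that gave a value; 231 of 815 values of the first and 133 of 849 of the second missed the threshold. Among uncalled differences, B2m turned to -0.43, ND4 to -0.83 and ND6 to -0.61 with genes detected as a covariate, and Prnp to 0.32 with oligodendrocyte and microglia covariates. Apoe turned to 0.28 without the 2 neuron libraries and with the astrocyte marker covariate, and ranged from -0.59 to 0.34 when 1 library was left out. Where not given by fewer samples or genes, the cause was not tested. RLE size factors moved the median difference of all genes from 0.09 to 0.15 and voom to -0.21. No paired analysis was possible because the labels carry no replicate numbers and do not tie samples to animals. Depth limits genes near 3 counts.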
